A study of Mus musculus with 768 samples.

Results

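The genes described here encode the proteins of the cytosolic ribosome. A gene was taken when its symbol was Rps or Rpl with a number and optional letters, or Rplp with a number, and this gave 76 of the 24489 genes counted, 46 of the large subunit and 30 of the small subunit. Symbols of the Rps6k kinases, pseudogene symbols and 17 like-named copies such as Rpl22l1 were not members. Reads were counted per gene in single nuclei from the striatum of untreated C57BL/6 mice, in 768 wells on 2 plates of equal size, 1 for each genotype, Oprm1-Cre:H2BG and Slc32a1-Cre:H2BG. Oprm1 encodes the mu opioid receptor and Slc32a1 the vesicular GABA transporter, so each Cre line limits which neurons are marked, and H2BG is present in both. The labels name no animals and no sex, and genotype, plate, animals and their sex cannot be told apart. With 1 plate a genotype there was no replicate check and no test between groups. Nuclei of 1 plate are not replicates of a genotype, so each difference stands as a value.

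Filters kept 736 nuclei and left out 29 wells of the Oprm1-Cre and 3 of the Slc32a1-Cre plate, with medians of 169398 and 175337 reads on genes. D1-like nuclei, named for the spiny projection neurons that carry the dopamine D1 receptor, numbered 495, 300 of them on the Oprm1-Cre plate. D2-like nuclei, named for the spiny projection neurons with the D2 receptor, numbered 24 on the Oprm1-Cre plate (6.76% of its kept nuclei) and made up 39.1% of the kept Slc32a1-Cre nuclei. Drd1a, the D1 receptor gene, stood at 1829 and 2171 CPM (counts per 1000000 reads of the summed nuclei) in D1-like nuclei and at 13.6 and 15.5 CPM in D2-like nuclei. Adora2a, which marks D2 neurons, stood at 17.1 and 15.5 CPM in D1-like and at 1623 and 1730 CPM in D2-like nuclei. Drd1a and Adora2a were on the marker lists that named these classes, so this contrast follows from the naming. Interneuron-like nuclei, led by Npy and Sst, both on the marker list of that class, numbered 16 and 18, and 15 and 19 nuclei were undecided. Xist, made from an inactive X, differed between the plates, at 3.31 CPM in Oprm1-Cre and 2023 CPM in Slc32a1-Cre D1-like nuclei.

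Ribosomal proteins are made in the cytosol, enter the nucleus and are built into subunits with ribosomal RNA in the nucleolus before export. Their mRNAs are short, abundant and stable in the cytosol, and many begin with a C and a run of pyrimidines, the 5′ terminal oligopyrimidine (TOP) element, through which mTOR signalling controls their translation. A nucleus holds newly made copies of these mRNAs, while most copies lie in the cytosol. The mammalian genome carries many processed pseudogenes of these genes, so reads from their exons often match several places.

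The levels below differed widely between members, and so did the amount of sequence each member shares with other genes. The first 120 coding bases are therefore shown for the 2 members with the highest and the 4 with the lowest level per kilobase of transcript, the latter chosen after their values were seen. Sequences and positions are from the GENCODE annotation of GRCm38, the build also called mm10. Capitals mark bases that lie in a 50-base word also found, on either strand, in an annotated transcript of another gene. The 2 with the highest level come first.
Rpl4: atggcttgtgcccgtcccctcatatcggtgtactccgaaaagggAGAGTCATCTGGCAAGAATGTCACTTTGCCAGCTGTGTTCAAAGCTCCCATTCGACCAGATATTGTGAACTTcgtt
Rpl8: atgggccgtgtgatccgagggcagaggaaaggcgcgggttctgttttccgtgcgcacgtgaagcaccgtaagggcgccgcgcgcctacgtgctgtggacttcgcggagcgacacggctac
The 4 with the lowest level follow.
Rpl35: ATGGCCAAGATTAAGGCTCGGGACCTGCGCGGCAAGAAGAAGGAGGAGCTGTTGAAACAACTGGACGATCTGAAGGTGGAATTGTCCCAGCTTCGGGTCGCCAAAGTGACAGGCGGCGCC
Rpl26: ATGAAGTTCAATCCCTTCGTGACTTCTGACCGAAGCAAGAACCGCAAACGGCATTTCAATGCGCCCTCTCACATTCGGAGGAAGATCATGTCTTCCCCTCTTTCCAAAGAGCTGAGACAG
Rpl28: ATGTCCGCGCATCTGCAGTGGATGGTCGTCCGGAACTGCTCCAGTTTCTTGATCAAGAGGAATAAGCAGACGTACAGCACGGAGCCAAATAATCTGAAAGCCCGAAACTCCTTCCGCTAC
Rpl30: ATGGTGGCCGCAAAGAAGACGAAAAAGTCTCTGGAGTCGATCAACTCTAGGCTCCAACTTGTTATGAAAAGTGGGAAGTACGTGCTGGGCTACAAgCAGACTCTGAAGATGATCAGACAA
Over the whole coding sequence, the shared bases made up 46.8% in Rpl4 (chr9:64173375-64178666, plus strand) and 14.5% in Rpl8 (chr15:76904078-76906314, plus strand). They made up 100% in Rpl35 (chr2:39001580-39005624, minus strand), Rpl26 (chr11:68901583-68906989, plus strand) and Rpl28 (chr7:4792874-4795066, plus strand), and 99.7% in Rpl30 (chr15:34440505-34443640, minus strand). The trend further below uses 50-base words of the whole transcript instead, of which Rpl4 shared 16.45% and Rpl8 7.86%. By that measure Rpl35 shared 95.1%, Rpl26 71.3%, Rpl28 47.4% and Rpl30 76.4%.

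A few ribosomal protein genes of both subunits stood far above the median member in D1-like nuclei. Per kilobase of transcript and averaged over the plates, Rpl4, whose protein lines the peptide exit tunnel, stood at 94.6 CPM per kilobase. Rpl8, whose protein lies near the peptidyl transferase centre, stood at 93.6 CPM per kilobase. Rpl4 and Rpl8 were close to each other: Rpl8 was below Rpl4 in the Oprm1-Cre plate (82.5 and 96.2 CPM per kilobase) and above it in the Slc32a1-Cre plate (104.8 and 93.1). Rplp1, a protein of the stalk that recruits elongation factors, stood at 49.3 CPM per kilobase. Rps3, at the mRNA entry channel, stood at 47.2 CPM per kilobase. Rps14, a small subunit protein, stood at 34.7 CPM per kilobase. The median member stood at 5.79 CPM per kilobase.

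**Figure D1:**
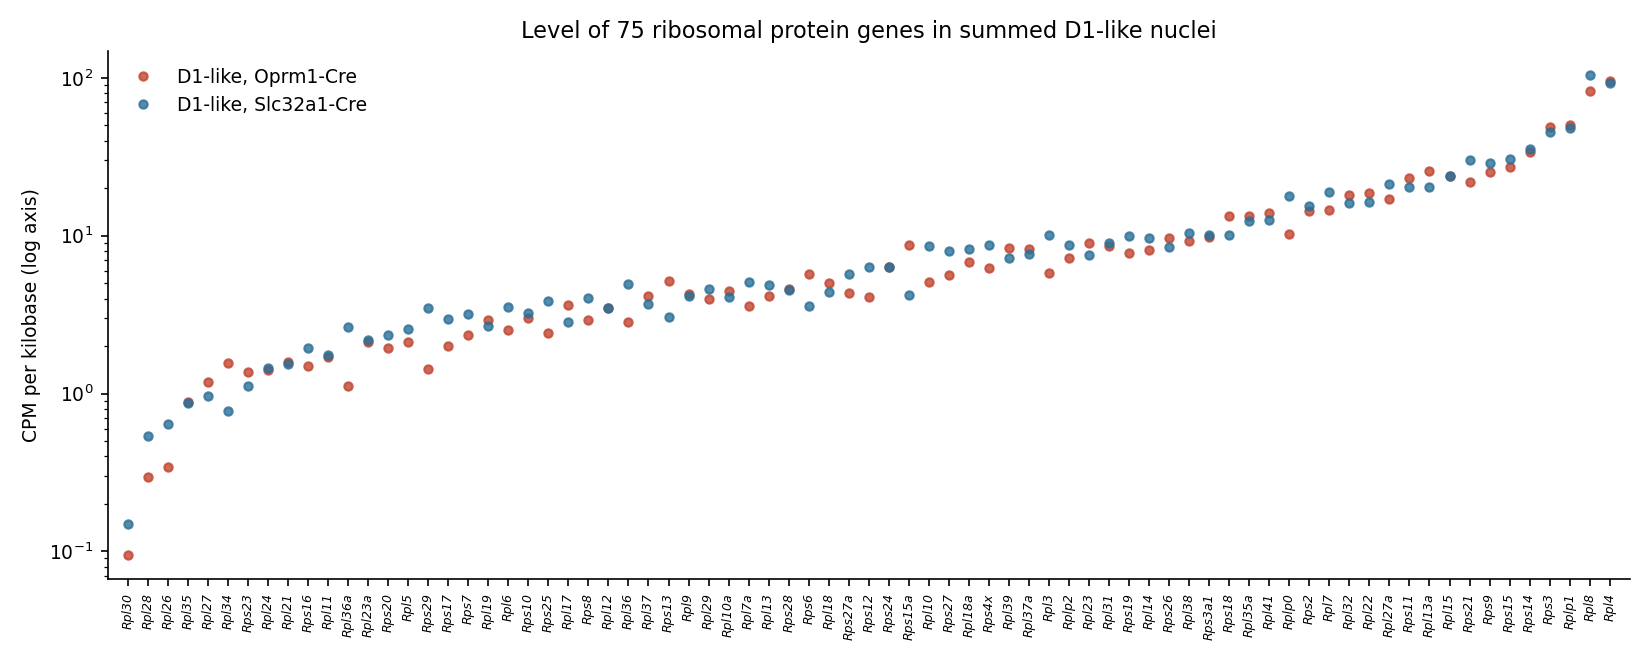
Level of 75 of the 76 genes in the summed D1-like nuclei of both plates, in CPM per kilobase of transcript on a log axis, ordered by the mean of the plates. The genes run from Rpl30 (mean 0.122) to Rpl4 (94.6), and the 2 plates lie close together for most of them.

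At the other end of the members with at least 5 CPM in D1-like nuclei of either plate stood Rps20, of the small subunit head, at 2.16 CPM per kilobase. The transcript used for Rps20 was 3706 bases long, and a long transcript lowers a level per kilobase. Rpl5, which binds the small ribosomal RNA of the large subunit, stood at 2.34 CPM per kilobase. Rps6, the substrate of the S6 kinases whose phosphorylation is a common readout of signalling in striatal neurons, stood at 4.65 CPM per kilobase. Rps24 of the small subunit stood at 6.35 CPM per kilobase, or 19.7 with the shortest of its RefSeq transcripts. Lowest of all were Rpl30 (0.122), Rpl28 (0.415), Rpl26 (0.494) and Rpl35 (0.873 CPM per kilobase), all of the large subunit. Rpl30 had 3 reads in the summed D1-like nuclei of either plate.

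The order of the members was nearly alike in both plates, with a Spearman correlation of member CPM of 0.97 over the 76 genes, which share libraries within a plate. In D1-like nuclei, 35 members on the Oprm1-Cre and 36 on the Slc32a1-Cre plate reached 5 CPM, and every member had a read. Counted as reads, which longer transcripts raise, Rpl4 took 15.98% and 15.1% of the reads on ribosomal protein genes. The 5 leading genes took 45.7% and 45.5%. In Slc32a1-Cre D2-like nuclei Rpl4 took 17.96%.

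Within a group most members were read in a minority of nuclei, and how widely a gene was read differed between members. Over all kept nuclei, the share of nuclei with a read ran from 0.951% for Rpl30 to 78.1% for Rplp1, with a median member at 29.5%. In Oprm1-Cre D1-like nuclei, Rpl4 ran from 0 to a median of 58.6 and a highest value of 780.0 CPM over nuclei. In the Slc32a1-Cre plate its median was 103.4 and its highest value 874.8 CPM. The 2 ranges overlapped almost entirely.

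Rpl15, of the large subunit, showed the other pattern. It had a read in 23.7% and 27.2% of D1-like nuclei of the Oprm1-Cre and Slc32a1-Cre plates, a median of 0, and reached 797.8 and 653.6 CPM in single nuclei. Rplp1 had a read in 80.3% and 77.9% of the same nuclei and reached only 104.2 and 159.8 CPM. Its reads were spread over most nuclei, while those of Rpl15 came from few nuclei with many reads each. The counts carry no molecular identifiers, so many reads in a nucleus can come from few molecules, and all intervals here cover counting error only.

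Members that share more sequence with other genes tended to have a lower level. Of the 76 members, 75 shared at least 1 word of 50 bases with another annotated gene, and the median member shared 55.7% of its words, with a median of 10.5 other genes. The 9 members with under 25% shared words had a median level of 17.5 CPM per kilobase in D1-like nuclei. The 22 members from 25% to 50% had a median of 8.56, the 23 from 50% to 75% a median of 4.70, and the 22 over 75% a median of 4.16 CPM per kilobase. The Spearman correlation was -0.42 over the 76 genes, which share libraries and annotation. There were members against the trend: Rps20 shared 7.57% of its words and stood at 2.16 CPM per kilobase, while Rplp1 shared 60% and stood at 49.3. Both values of Rps20 rest on its transcript of 3706 bases, whose length lowers the level per kilobase.

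**Figure D2:**
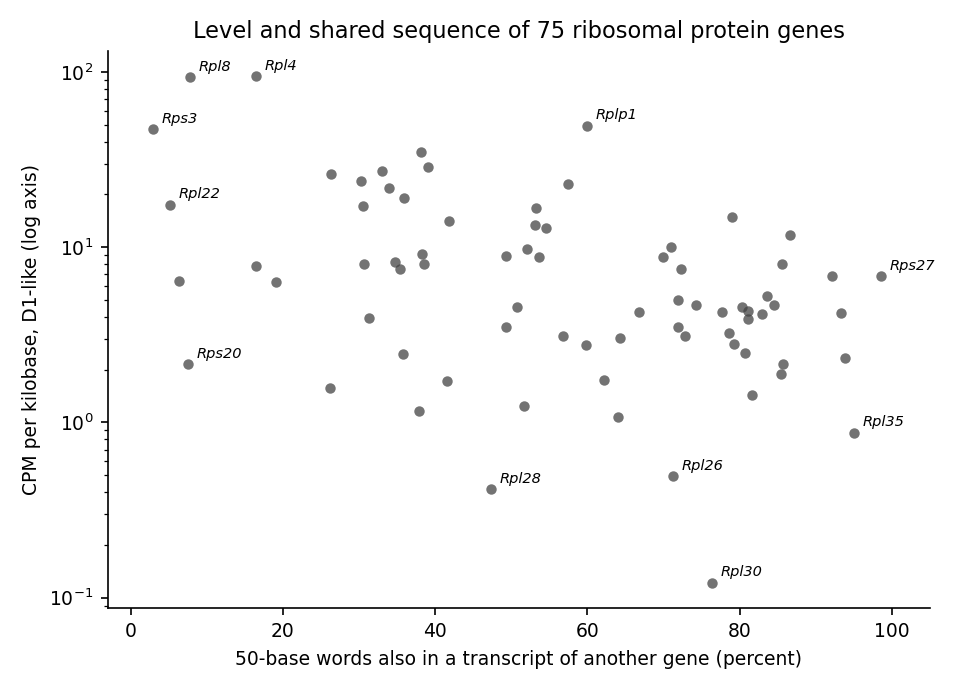
Level in D1-like nuclei (CPM per kilobase, mean of the plates, log axis) against the percent of a transcript's 50-base words that also occur in another gene, 1 point for each of 75 genes. Rpl8 and Rpl4 lie at the upper left, and Rpl35, Rpl26 and Rpl30 at the lower right.

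The 77 genes of the mitochondrial ribosome, whose proteins are also encoded in the nucleus, were read at a higher level. Their median was 18.9 CPM per kilobase against 5.79 for the cytosolic members, and their median share of shared words was 3.01%. As a group they took 0.213% and 0.241% of the reads of D1-like nuclei, more than the cytosolic members at 0.0926% and 0.0951%. Within the mitochondrial genes the correlation of level with shared words was -0.33. Not given in the sources used here is how counting treated reads with several matches, and the part of shared sequence in these levels was not tested. Level per kilobase is already divided by transcript length, so its correlation of 0.03 with length among the members does not show whether length matters. With the number of small nucleolar RNA genes inside the gene, present in 29 of the 76 members, level per kilobase had a correlation of 0.007.

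The like-named copies were mostly low, with 5 of 17 at 0 in the summed D1-like nuclei of each plate. The paralog Rpl22l1 had a read in 53.1% of kept nuclei and Rpl14.ps1 in 56.4%. Rpl36al had a read in 36.7%, Rps27l in 15.8%, Rpl7l1 in 15.1% and Rps4l in 11.01% of kept nuclei. Rps15a.ps6 (6.93%) and Rps15a.ps4 (6.66%) were rarer. Reads of a member and its copy may be split or exchanged by the counting, so members with such copies are uncertain. Of the ribosomal proteins that the symbol rule leaves out, Gnb2l1, the scaffold protein also called Rack1, was read in 61.96% of nuclei. Rpsa was read in 28.7%, and Fau (24.7%), which encodes a fusion with a ubiquitin-like protein, was read less widely than Gnb2l1.

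Several members start, in the annotation, with the TOP element that the background describes. A start with C followed by 4 bases that are each C or T was found at 13 of the 66 RefSeq starts of 56 matched members, or 19.7%, against 823 of 32851 starts of all genes, or 2.51%. It was at 0 of the 75 starts of mitochondrial ribosomal protein genes. The motif was read on the transcribed strand at the start base alone, and a match is a description of these letters only. Shown here are 4 members that the results below or above turn on, from 30 bases before the start base to the 20th base of the transcript, RefSeq on GRCm38.p6, with the C and its pyrimidine run in capitals.
Rpl15: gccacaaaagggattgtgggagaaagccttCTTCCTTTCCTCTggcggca
Rps15a: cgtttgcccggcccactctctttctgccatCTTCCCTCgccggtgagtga
Rps6: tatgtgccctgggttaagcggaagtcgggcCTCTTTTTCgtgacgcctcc
Rpl28: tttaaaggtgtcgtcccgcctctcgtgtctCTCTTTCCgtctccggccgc
They lie at chr14:18270967-18271016 (Rpl15, minus strand), chr7:118116128-118116177 (Rps15a, minus strand), chr4:86857348-86857397 (Rps6, minus strand) and chr7:4792935-4792984 (Rpl28, plus strand). Rpl15 stood at 23.8 and Rpl28 at 0.415 CPM per kilobase in D1-like nuclei, so a TOP start was present at both high and low levels.

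As a whole the ribosomal protein genes took between 0.0926% and 0.111% of the summed reads in each class and plate. In D1-like nuclei they took 0.0926% of the summed Oprm1-Cre reads (95% exact binomial interval 0.0918% to 0.0934%) and 0.0951% of the summed Slc32a1-Cre reads (0.0941% to 0.0961%). D2-like nuclei gave 0.0952% (0.0922% to 0.0982%) and 0.101% (0.0998% to 0.102%). Interneuron-like nuclei gave 0.0994% (0.0960% to 0.103%) and 0.111% (0.108% to 0.114%). The order from D1-like to interneuron-like was the same in both plates, and the intervals of neighbouring classes overlapped in the Oprm1-Cre plate and did not in the Slc32a1-Cre plate. These intervals count each read as independent and leave out the spread between nuclei and animals, so intervals that do not overlap do not set classes apart.

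Nuclei within a class differed far more than classes did. The Oprm1-Cre D1-like nuclei ran from 0.0199% to a median of 0.0754% and up to 0.258% (SD 0.0447 over nuclei). Those of the Slc32a1-Cre plate ran from 0.0216% to 0.0868% and 0.226% (SD 0.0380 over nuclei). The medians of D2-like nuclei were 0.0927% and 0.0940%, and those of interneuron-like nuclei 0.0982% and 0.108%. All groups overlapped. A nucleus had a read of a median of 22 and 24 of the 76 members in D1-like nuclei, 24.5 and 23 in D2-like and 24.5 and 28.5 in interneuron-like nuclei, and no kept nucleus of these classes was without a read of a member. Interneuron-like nuclei were read more deeply, at medians of 202092 and 224582 reads, than D1-like nuclei at 169770 and 166894.

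**Figure D3:**
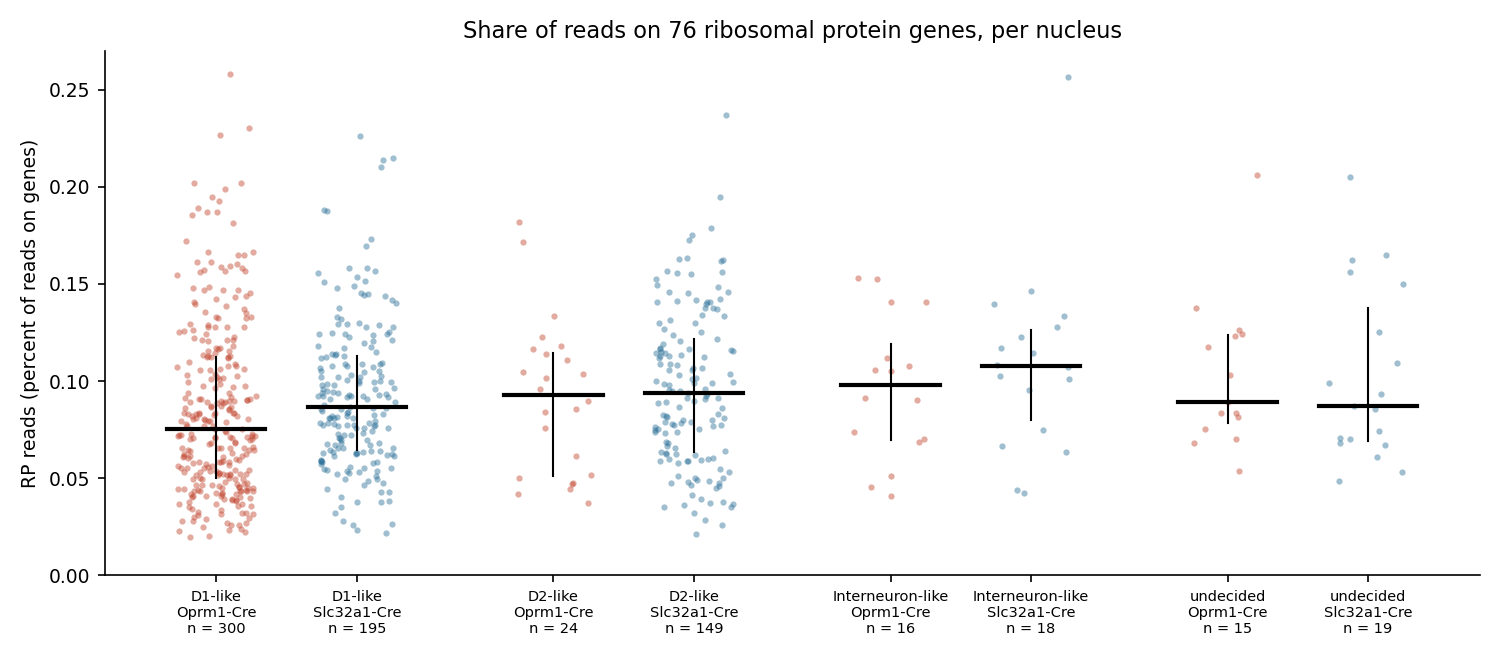
Percent of a nucleus's reads that fell on the 76 genes, by class and plate, 1 point a nucleus, with the median (thick line) and the quartiles (thin line). The medians lie between 0.0754% and 0.108%, while single D1-like nuclei range from 0.0199% to 0.258%.

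In D1-like nuclei most ribosomal protein genes measured were within 0.5 on the log2 scale between the plates. The log2 ratio of the Oprm1-Cre over the Slc32a1-Cre sum, each with 5 CPM added so that low genes come out nearer to 0, was formed for genes with at least 5 CPM in either sum. Of the 38 members measured in D1-like nuclei, 1 was higher and 2 were lower by over 0.5, against 14.9% of 11019 genes higher and 12.1% lower. The median of the members was -0.05 and that of all genes -0.0021. The summed level of the 76 genes was 925.7 and 950.8 CPM, a log2 ratio of -0.04. In the same nuclei the 14 mRNAs listed as typical of the cell body summed to 5410 and 6826 CPM, and the 10 nuclear-retained RNAs, Malat1 and Xist among them, to 95560 and 73977 CPM. Astrocyte markers summed to 506.6 and 461.3 CPM, oligodendrocyte markers to 318.3 and 276.5, markers of their precursors to 86.5 and 36.7 and microglia markers to 5.39 and 3.19 CPM, with Aqp4 at 0 in the Slc32a1-Cre sum. The median astrocyte marker stood at only 3.79 and 4.25 CPM, so few genes carried that sum. In Oprm1-Cre D2-like nuclei 5 of the 6, all but Slc4a4, were at 0 while the sum was 479.5 CPM. Of the 6 oligodendrocyte markers, 3 were higher and 1 lower by over 0.5 between plates in D1-like nuclei. The part of these in the ratios of the members was not tested.

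Rps15a, of the small subunit, was the member that was higher in the Oprm1-Cre plate, at 44.99 CPM (interval 43.2 to 46.8) against 21.8 (20.2 to 23.3) in D1-like nuclei, a log2 ratio of 0.90. It had a read in 40% and 37.4% of these nuclei, and single nuclei reached 1423 and 611.6 CPM around a median of 0 in both. The shares of nuclei with a read were near each other and the ranges overlapped. In D2-like nuclei the ratio ran the other way, at 9.21 against 24.2 CPM and -1.04.

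Rplp0, the base of the stalk, stood at 13.9 against 24.3 CPM, a log2 ratio of -0.63. It was read in 35.3% and 46.2% of D1-like nuclei, and its medians over nuclei were 0 in both plates, with highest values of 154.8 and 210.2 CPM. Rpl3, whose protein reaches into the peptidyl transferase centre, stood at 7.88 against 13.7 CPM, a log2 ratio of -0.54, which was -0.4997 without the Slc32a1-Cre nucleus with most of its reads. It was read in 49% and 60.5% of D1-like nuclei. The nuclei of both plates overlapped for both genes. Rpl10 (-0.39), Rpl8 (-0.33) and Rps21 (-0.32) followed on the lower side, and Rps6 (0.29), Rpl13a (0.28), Rps18 (0.23) and Rpl23 (0.17) on the higher side, all within 0.5.

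D2-like nuclei gave a wider scatter, with 24 nuclei in the Oprm1-Cre plate, and the members named from them were chosen after their values were seen. Of 43 members measured, 5 were higher and 9 lower, against 23.6% and 29.2% of 10974 genes, with a median of 0.0053 for the members and -0.07 for all genes. Rpl27a, of the large subunit, had 1 read in the 24 Oprm1-Cre nuclei (0.242 CPM, interval 0.00614 to 1.35) and stood at 29.9 CPM in the Slc32a1-Cre plate, where 25.5% of nuclei had a read. Rpl22, a protein that translation in general can do without and that is often tagged to isolate ribosomes, stood at 67.6 against 26.03 CPM, and 41.9% of its Oprm1-Cre reads came from 1 nucleus. Without that nucleus its log2 ratio went from 1.23 to 0.57. Rpl37a and Rpl39 were not past 0.5 without the Oprm1-Cre nucleus with most of their reads, at 0.32 and 0.42.

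D1-like and D2-like nuclei were compared within each plate. In the Slc32a1-Cre plate, none of 38 measured members was higher in D1-like nuclei by over 0.5 and 1 was lower, against 14.8% and 10.3% of 10891 genes. The median was -0.03 for the members and 0.03 for all genes, and the summed level was 950.8 against 1010 CPM, a log2 ratio of -0.09. The lower member was Rpl15, at 45.7 against 76.1 CPM and -0.68. It was read in 27.2% of D1-like and 30.2% of D2-like nuclei, with a median of 0 and highest values of 653.6 and 720.8 CPM, so the nuclei overlapped. Its ratio was -0.52 without the D2-like nucleus with most of its reads. Rpl8 (0.48), Rps21 (0.36) and Rpl22 (0.31) lay at the higher end, and Rps6 (-0.35) and Rpl4 (-0.33) at the lower end, within 0.5.

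In the Oprm1-Cre plate, 4 of 40 members were higher and 4 lower in D1-like over D2-like nuclei, against 30.4% and 19.3% of 11112 genes. The count of lower members depended on the processing: it was 7 with each nucleus weighted alike and with median-ratio scaling, 10 with 1 CPM added and 12 after thinning to 50000 reads. With 1 CPM added 7 members were higher, and at a threshold of 1 there were 2 higher and 0 lower. The 30.4% and 19.3% of all genes belong to the main setting, and no share of all genes under these alternatives is given here. The median was -0.03 for the members and 0.10 for all genes, and the summed log2 ratio was -0.04. This comparison shares its D1-like nuclei with the comparison of plates and rests on the same 24 D2-like nuclei. Rps15a (1.81), Rpl27a (2.24), Rps24 (0.78) and Rps3a1 (0.64) were the higher members. Rpl22 and Rpl23, of the 4 lower members, were within 0.5 without the D2-like nucleus with most of their reads, and Rpl31 was at -0.57.

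**Figure D4:**
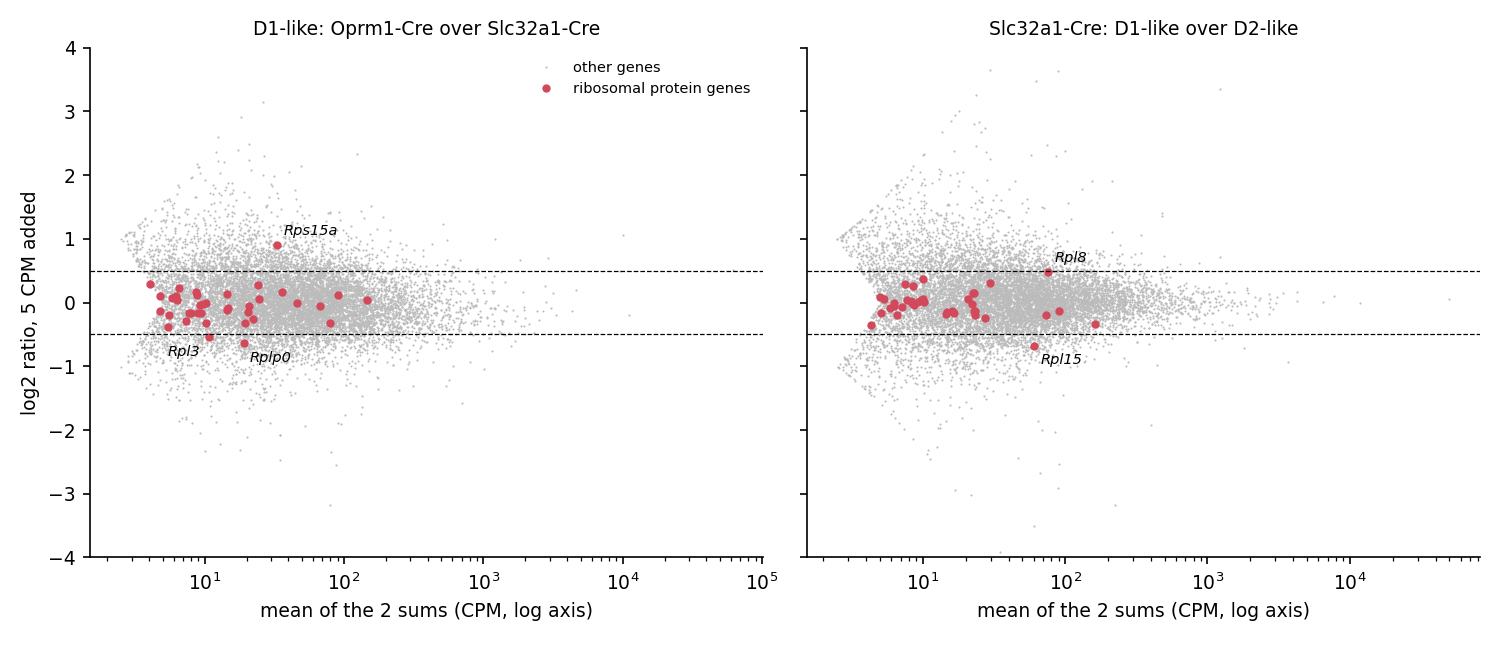
Log2 ratio (5 CPM added) against the mean of the 2 sums (CPM, log axis) for D1-like nuclei between plates and for D1-like over Slc32a1-Cre D2-like nuclei, with all measured genes in grey, the 38 measured ribosomal protein genes in red and dashed lines at 0.5 and -0.5. Most red points lie between the lines, and 4 and 11 other genes lie outside the axis.

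The share of reads on ribosomal protein genes was larger in the nuclei with most genes than in those with fewest. For this, each nucleus was thinned at random to 50000 reads, and the nuclei of a class and plate were ranked by the number of genes with a read and split into 3 sets of near equal size. In Oprm1-Cre D1-like nuclei the members took 0.0811% of reads in the lowest set, 0.0771% in the middle set and 0.100% in the highest set (100, 99 and 99 nuclei). In Slc32a1-Cre D1-like nuclei the shares were 0.0786%, 0.102% and 0.0994% (65, 65 and 64 nuclei). In D2-like nuclei of that plate they were 0.0926%, 0.0806% and 0.118% (50, 50 and 49 nuclei). The highest set was above the lowest by 0.31, 0.34 and 0.35 on the log2 scale, with the middle set on no fixed side.

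Nuclei of the sets overlapped widely. In Oprm1-Cre D1-like nuclei the lowest set ran from 0.016% to 0.276% around a median of 0.069%, and the highest set from 0.024% to 0.262% around 0.096%. The number of members with a read at 50000 reads rose from a median of 12 to 17 there, from 13 to 17.5 in D1-like and from 13 to 17 in Slc32a1-Cre D2-like nuclei. A larger number of genes with a read includes these members themselves. The Spearman correlation of the share with gene number was 0.23, 0.24 and 0.24 over these nuclei, those of a case sharing 1 plate. With the reads of a nucleus before thinning the correlation of the share was 0.36, 0.16 and 0.29.

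**Figure D5:**
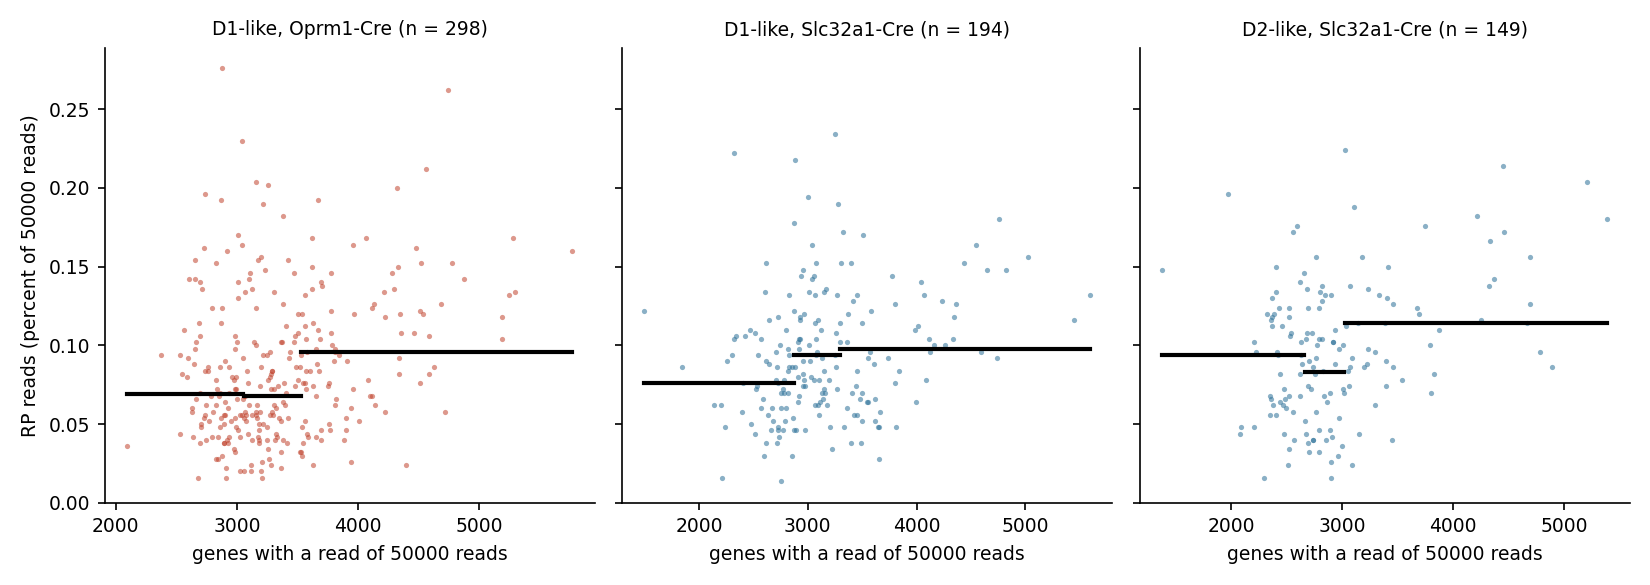
Percent of 50000 reads on the 76 genes against the number of genes with a read, 1 point a nucleus, with the median of the lowest, middle and highest set as bars over the range of each set. The bar of the highest set is the upper one in each panel, and the points of the sets overlap.

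Single members lay on both sides of 0 between the sets. In Oprm1-Cre D1-like nuclei 9 of 41 measured members were higher and 3 lower in the highest set, against 24.5% and 17.1% of 11261 genes. In Slc32a1-Cre D1-like nuclei 11 of 43 were higher and 5 lower, against 29.3% and 21.3% of 11112 genes. In D2-like nuclei of that plate 10 of 46 were higher and 8 lower, against 31.3% and 25.5% of 10893 genes. These shares of members were below or near those of all genes, and the medians were 0.20, 0.16 and 0.17 for the members against 0.08, 0.10 and 0.07 for all genes. Without the nucleus with most reads of the gene in either set, 5 of the 12, 9 of the 16 and 11 of the 18 members were still past 0.5.

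Rpl27a was higher in the highest set in each case, at 23.8 against 12.8 CPM, 24.4 against 8.92 and 39.2 against 13.2, or 0.70, 1.08 and 1.28 on the log2 scale. Rpl4 stood at 152.1 against 93 CPM, 159.7 against 109.8 and 231.8 against 148.4, or 0.68, 0.52 and 0.63, and the value of 0.52 was 0.40 without 1 nucleus. Rpl15 gave 0.51, 1.63 and 0.81, with 46.6 against 11.7 CPM in Slc32a1-Cre D1-like nuclei, and its 0.51 was 0.41 without 1 nucleus. These 3 members of the large subunit were past 0.5 in all 3 cases, and the share of all genes that were so is not given here. Without the nucleus with most reads of the gene in either set, only Rpl27a of the 3 stayed past 0.5 in each case. Rps15a went different ways, at -0.73, 1.77 and -0.73. The 5 lower members in Slc32a1-Cre D1-like nuclei were Rpl10, a late joining and X-linked member (-0.77), Rpl10a (-0.64), Rps4x, also X-linked (-0.62), Rpl7a (-0.54) and Rpl35a (-0.50). Of these, Rpl10 and Rpl10a were past -0.5 without the nucleus with most of their reads in either set. In Slc32a1-Cre D2-like nuclei Rpl10a was at -0.87 and Rpl10 at -0.52, the latter at -0.34 without 1 nucleus.

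Other measures moved with gene number in the same nuclei. From the lowest to highest set, the cell body mRNAs went from 4189 to 5971 CPM, from 5188 to 7522 and from 5293 to 8157. Of these 14 mRNAs, 7, 7 and 6 were higher by over 0.5, against 24.5%, 29.3% and 31.3% of all genes. Lower by over 0.5 were 0, 1 and 0, against 17.1%, 21.3% and 25.5% of all genes. The nuclear-retained RNAs summed to 106472 and 93255 CPM, 84583 and 71740, and 86162 and 58374 in the lowest and the highest set. Malat1 alone made up 82023 and 70320 CPM, 59084 and 49477.5, and 59790 and 40345 of these sums. Of 10, 10 and 9 such RNAs measured, 2, 1 and 1 were higher by over 0.5 and 0, 1 and 4 lower. The same shares of all genes stand beside these counts. Their median log2 ratios were 0.018, -0.23 and -0.40. Spike-in RNA took a median of 27.6% and 19.1%, 26.1% and 16.8%, and 28.7% and 16.6% of the reads of a nucleus. Depth differed too: the median reads of a nucleus before thinning were 171876 and 191444, 142543 and 196168, and 157010 and 236903 in the lowest and the highest set. Oligodendrocyte markers summed to 339.8 and 169.7 CPM, 393.2 and 230.6, and 534 and 148.6 in the lowest and the highest set. The middle set of Oprm1-Cre D1-like nuclei was above both at 683.2 CPM. Of 5, 5 and 6 of these markers measured, 1, 2 and 0 were higher by over 0.5 and 4, 2 and 6 lower, against the same shares of all genes. Astrocyte markers summed to 538.4 and 559.0 CPM, 391.1 and 568.4, and 388.4 and 379.6. Vessel markers were at or near 0. The part of any of these in the share of ribosomal protein reads was not tested.

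Over single nuclei, the ribosomal protein share went with the cell body mRNAs at Spearman correlations of 0.43, 0.27 and 0.37 and against the nuclear-retained RNAs at -0.46, -0.27 and -0.42. The members are part of the same fixed total of reads as the other genes, and all nuclei of a set share a plate. The large and small subunit shares went together at 0.34, 0.14 and 0.21. Of 5620 other genes, those most like the ribosomal protein share over D1-like nuclei were Fkbp1a (0.29), Tmsb4x (0.28), Ppp3r1 (0.27), Ppp1r2 (0.27) and Snap25 (0.27), by the mean of the Spearman correlations in the 2 plates over their thinned nuclei. Their encoded proteins are an immunophilin, an actin-binding peptide, the regulatory subunit of calcineurin, an inhibitor of protein phosphatases and a synaptic SNARE protein. The median over all these genes was 0.036 and the 99th percentile 0.22, so these are weak relations in sparse counts.

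Genes that work beside the ribosome were compared in the same way. Of 16 other TOP and elongation genes, which include Eef1a1, the elongation factor that brings aminoacyl-tRNA, 15 were measured between plates in D1-like nuclei and none passed 0.5 in either direction, against 14.9% of all genes higher and 12.1% lower. Eef1a1 stood at 138.04 and 170.6 CPM there. Of 20 ribosome biogenesis genes 19 were measured, 2 higher and 1 lower, and of 77 mitochondrial ribosomal protein genes 75 were measured, 4 higher and 9 lower. Of 10 genes of mTOR and eIF2 signalling 8 were measured, 2 higher and 0 lower. Eif4ebp1 was not measured, at 0 in the Slc32a1-Cre sum and under 5 CPM in the Oprm1-Cre sum. It was at 0 in D2-like nuclei of both plates. In D2-like nuclei, with 24 on the Oprm1-Cre plate, more of these genes were past 0.5 between the plates, as were more of all genes (23.6% higher and 29.2% lower). There, 1 of 16 measured TOP and elongation genes was higher and 4 were lower, and of 19 biogenesis genes 2 were higher and 5 lower. Of 75 mitochondrial ribosomal protein genes 13 were higher and 21 lower, and of 8 genes of mTOR and eIF2 signalling 5 were higher and 2 lower, with a median of 0.72.

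Between the sets by gene number, 7 of 14 TOP and elongation genes measured were higher and 0 lower in Oprm1-Cre D1-like nuclei, against 24.5% and 17.1% of all genes. In Slc32a1-Cre D1-like nuclei 7 of 14 were higher and 0 lower, against 29.3% and 21.3%. In D2-like nuclei of that plate 4 of 16 were higher and 2 lower, both shares below those of all genes (31.3% and 25.5%). Of the 12 snoRNA host RNAs measured, 6, 5 and 6 were lower in the highest set and 0 higher, against the same shares of all genes.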

How the data were processed

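The authors deposited whole-number read counts per gene and well in 1 table. Per the submitters' processing notes, mm10, SAMtools and Seurat were used; not given in the sources used here: aligner, counter, annotation, use of strand. The labels' protocols name RNeasy columns and a TruSeq stranded kit that depletes ribosomal RNA, and not how nuclei were sorted or amplified. Of 768 wells, those with at least 1000 genes and 20000 reads were kept, spike-ins left out. Nuclei were clustered without the members and their copies (scanpy 1.11.5, leidenalg 0.10.2, Python 3.11.15, 2000 variable genes, 30 principal components, 15 neighbours, resolution 1, seed 1) and named from marker lists. No doublet caller was run; leaving out 34 possible doublets was an alternative. Reads were summed per class and plate as CPM, with exact Poisson intervals for genes and exact binomial intervals for shares. Log2 ratios had 5 CPM added. Thinning to 50000 reads left out 4 and 1 nuclei. Levels per kilobase used GENCODE transcripts that carry a RefSeq name, with the longest coding sequence. Named genes were the highest and lowest members by level, plate ratio, class ratio and gene number ratio, copies in over 5% of nuclei, and the 5 most alike genes; some are not reported here. Alternatives were depth, doublets, denominator, members, weighting, added CPM, filter, scaling, threshold, thinning and single nuclei. The members and lists were chosen with earlier results of these data known.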

Additional observations from a re-analysis of the deposited data

Results flagged for a closer look

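Rps15a, Rpl31, Rpl37a and Rpl21 passed 0.5 on the log2 scale in opposite directions in groups under the same comparison, and none of these differences was tested. Rps15a was higher in the Oprm1-Cre plate in D1-like nuclei (0.90) and lower in D2-like nuclei (-1.04). Its highest over its lowest set by gene number was -0.73 in Oprm1-Cre D1-like nuclei, 1.77 in Slc32a1-Cre D1-like nuclei and -0.73 in Slc32a1-Cre D2-like nuclei. Without the nucleus with most of its reads in the lowest set, the first and the last of these were -0.45 and -0.15. Rpl31, of the large subunit, was at 0.66 in D1-like and -1.08 in Slc32a1-Cre D2-like nuclei in the same comparison by gene number. Rpl37a, of the large subunit, was at -0.53 in Oprm1-Cre and 0.61 in Slc32a1-Cre D1-like nuclei, and within 0.5 in both without 1 nucleus (-0.43 and 0.38). Rpl21, of the large subunit, was at -0.62 and 0.57 in the same nuclei, and at -0.04 and -0.24 without 1 nucleus.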

How the results depend on the processing

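Signs of the summed values and of the share by gene number held under all alternatives run, while counts and sizes moved. A sign says little where a ratio is close to 0. Shares of summed reads are given for D1-like Oprm1-Cre, D1-like Slc32a1-Cre, D2-like Oprm1-Cre and D2-like Slc32a1-Cre nuclei in that order. They were 0.102%, 0.103%, 0.105% and 0.109% with nuclear-retained RNAs out of the total, 0.101%, 0.104%, 0.102% and 0.110% with copies and the proteins outside the symbol rule added, and 0.0850%, 0.0925%, 0.0913% and 0.0962% with each nucleus weighted alike. Without possible doublets the same shares, D2-like Oprm1-Cre left aside, were 0.0908%, 0.0940% and 0.0994%. The summed log2 ratio between plates in D1-like nuclei was close to 0, at -0.0046, without nuclear-retained RNAs. It was -0.12 with equal weight and -0.11 after thinning to 50000 reads. The summed log2 ratio of D1-like over D2-like nuclei was -0.10, -0.13 and -0.10 in the Oprm1-Cre plate with equal weight, median-ratio scaling and thinning. In the Slc32a1-Cre plate it was -0.057, -0.13 and -0.057. For D1-like over Slc32a1-Cre D2-like nuclei, 2 members were lower without doublets, 1 was higher with equal weight, 1 higher and 2 lower with 1 CPM added, 1 higher and 3 lower after thinning, and 0 lower at a threshold of 1. In the Oprm1-Cre plate 7 members were lower with equal weight and with median-ratio scaling, 12 after thinning, 7 were higher and 10 lower with 1 CPM added, and 2 higher and 0 lower at a threshold of 1. Between plates, 2 members of D1-like nuclei were higher with 1 CPM added, 0 were higher and 0 lower at a threshold of 1, and 2 of D2-like nuclei were higher and 2 lower at that threshold. No share of all genes under the same alternatives is given beside these counts of members. The highest over the lowest set by gene number was 0.44 without thinning in D1-like Oprm1-Cre nuclei, 0.41 there and 0.45 in D2-like Slc32a1-Cre nuclei with nuclei split into 4 sets, and 1.25, 1.47 and 1.52 per spike-in read. Medians of the members near 0 changed sign: D1-like over D2-like nuclei with no minimum level (0.048 in the Oprm1-Cre and 0.010 in the Slc32a1-Cre plate), the latter also at 100000 reads a nucleus (0.00036), and D2-like nuclei between plates at 100000 reads (-0.072), with copies added (-0.083) and with no minimum level (-0.10). Leaving out the nucleus with most reads of a member was added after seeing the data, and turned Rpl21 by gene number in D1-like Slc32a1-Cre nuclei to -0.24. Other shares and counts under these alternatives moved by less than counting error or 1.5 times. Of values for single members and numbers measured, 466 stayed within 0.5 on the log2 scale or 1.5 times and 17 moved beyond that in the same direction.

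No paired analysis was possible because each genotype is 1 plate and the replicate numbers only follow accession order. Low counts per nucleus, 1 plate a genotype and 24 D2-like Oprm1-Cre nuclei limit what can be compared. For members near 0, such as Rpl30, differences were not detectable at this depth.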
